A study of Mus musculus with 16 samples.

Results

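The protein genes of the mitochondrial ribosome were followed by RNA-seq in primary mouse hepatocytes. They were taken by symbol, as every row of the count table named *Mrpl* or *Mrps* followed by a number and at most 1 further letter, which gave 78 of the 55450 genes listed. Of these, 49 carry a large subunit symbol (*Mrpl*) and 29 a small subunit symbol (*Mrps*). All 78 passed the filter on low values (a mean over the libraries of at least 1 CPM, counts divided by the library's total on a common scale), and the lowest count of a member in any library was 145. Levels and sums given in CPM below use the library's total multiplied by its TMM normalization factor, not the plain total.

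Hepatocytes came from livers of wild-type male C57BL/6J mice, the sex, strain and age (8 to 12 weeks) being those given in the study's methods for its mice in general, and were cultured overnight in DMEM with 5% FBS and insulin-transferrin-selenium. They were left untreated, or received 10 mM sodium itaconate, a 1:10 dilution of a chemically defined mixture of lipids, or both agents together. The mixture holds cholesterol and 6 fatty acids (oleic, palmitic, stearic, linoleic, arachidonic and myristic acid), so that a lipid effect is that of the whole mixture. Each of the 4 groups (untreated, itaconate, lipid, lipid + itaconate) had 4 libraries, named by the replicate letters A to D. The sources used here do not say whether a letter is an animal, a preparation or a culture. The p-values measure the spread between these libraries that is left once the replicate letter is in the model. That spread may therefore be technical. The study asked whether itaconate changed transcription in lipid-challenged hepatocytes, and the comparisons below put that question to the mitochondrial ribosome.

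The mitochondrial ribosome sits in the matrix and makes the few proteins encoded by mitochondrial DNA, all of them subunits of the respiratory chain and ATP synthase. Its rRNAs come from the mitochondrial genome, whereas all of its proteins are encoded in the nucleus, made in the cytosol and imported. Some of these proteins have counterparts in bacterial ribosomes and others are particular to mitochondria. Hepatocytes are rich in mitochondria and oxidise fatty acids in them, with the respiratory chain taking up the electrons. Itaconate is a metabolite made from the citric acid cycle intermediate aconitate, best known from activated macrophages.

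Promoters of mitochondrial protein genes are known for sites of NRF1, of ETS factors such as GABP, and of YY1. RefSeq promoters (GRCm38.p6, 250 bases before to 50 bases after the start) were matched by symbol for 69 of the 78 members and searched on both strands for GCGCA followed by any base and GCGC (NRF1), CCGGAAG (ETS) and AAGATGGCG (YY1). The ETS letters were found in 26 of the 69 members (37.7%, against 21.5% of the 8991 matched genes tested and 9.93% of all 27025 genes with a promoter). The NRF1 letters were found in 13 (18.8%, against 12.3% and 5.19%) and the YY1 letters in 8 (11.6%, against 3.95% and 1.64%). At least 1 of the 3 motifs was in 41 members (59.4%, against 33.4% and 15.1%). The windows below, 150 bases before to 30 bases after the start, are those that hold a motif among the members with the largest changes with lipid or a call with itaconate alone. Letters of a motif, on either strand, are in capitals, and each run is written 5′ to 3′ on the strand of the gene.
Mrps26, chr2:130563607-130563786, plus strand: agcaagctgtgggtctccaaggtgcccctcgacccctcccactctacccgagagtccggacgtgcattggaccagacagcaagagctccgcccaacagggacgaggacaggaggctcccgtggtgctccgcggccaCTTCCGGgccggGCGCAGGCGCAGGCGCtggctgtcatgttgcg
Mrpl34, chr8:71464776-71464955, plus strand: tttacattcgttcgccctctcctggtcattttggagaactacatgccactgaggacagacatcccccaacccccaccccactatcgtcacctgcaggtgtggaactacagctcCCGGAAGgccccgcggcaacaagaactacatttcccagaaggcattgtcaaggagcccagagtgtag
Mrpl43, chr19:45006413-45006592, minus strand: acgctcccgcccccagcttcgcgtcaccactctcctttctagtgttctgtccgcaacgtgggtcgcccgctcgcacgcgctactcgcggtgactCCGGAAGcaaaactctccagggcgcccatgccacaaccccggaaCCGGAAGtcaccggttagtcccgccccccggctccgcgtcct
Mrpl48, chr7:100583101-100583280, minus strand: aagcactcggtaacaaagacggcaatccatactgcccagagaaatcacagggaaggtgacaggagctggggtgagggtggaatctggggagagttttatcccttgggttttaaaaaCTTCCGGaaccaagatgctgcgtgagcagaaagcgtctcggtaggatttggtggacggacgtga
Mrpl36, chr13:73330859-73331038, plus strand: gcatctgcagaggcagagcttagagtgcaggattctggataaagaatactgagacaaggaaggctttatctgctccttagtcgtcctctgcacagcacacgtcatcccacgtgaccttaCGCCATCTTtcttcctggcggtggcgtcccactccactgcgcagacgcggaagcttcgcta

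*Mrps26* holds an ETS match that begins at base -14 from the start and a pair of overlapping NRF1 matches at -2 and 5, which share bases. *Mrpl43* holds ETS matches at -56 and -12, and *Mrpl34* one at -37. The window of *Mrpl48*, with an ETS match at -34, belongs to 1 of 4 starts listed for the gene, and the other starts hold none of the motifs. *Mrpl36* holds a YY1 match at -31. The promoters of *Mrpl16*, *Mrpl41*, *Mrps2*, *Mrps5* and *Mrpl10* held none of these letters, and *Mrpl13*, *Mrpl54*, *Mrps28*, *Mrpl4*, *Mrpl15*, *Mrpl19*, *Mrpl38*, *Mrps34* and *Mrps35* were not matched. Members that rose with lipid and members that were not called held a motif at similar shares, 15 of 26 (57.7%) and 24 of 41 (58.5%). A match is a description of the letters and not a site of binding.

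Total expected counts ranged from 22346049 to 35512004 per library, and the root mean square distance of a library from its group mean, over the members with the letter removed, was between 0.0545 and 0.0834 on the log2 scale. The largest value was that of lipid + itaconate replicate C. This library also had 6.01% of its counts from the mitochondrial genome, against 3.27 to 4.97% in the other 15, and the lowest hepatocyte marker sum, 31654 CPM against 35955 to 55895. Counts of members called are given with and without it, and the part of these differences in the results was not tested. The hepatocyte markers were abundant (7 genes with a summed level of 40074 to 46873 CPM as group means) and fell with lipid in 3 of 7, all 7 with negative changes, and in 4 of 7 in the lipid comparison with itaconate present. Of 6 macrophage markers, *Cd68* made up most of the summed level, while *Adgre1*, *Clec4f*, *Csf1r* and *Vsig4* averaged 1.78, 2.19, 2.30 and 0.745 CPM. The macrophage sum was 158 to 260.4 CPM in untreated and 218 to 312 CPM in lipid libraries, 138 to 213 CPM in itaconate and 203 to 307 CPM in lipid + itaconate libraries. *Cd68* rose with lipid alone (0.43 (adjusted p = 5.36e-06)) and *Adgre1* fell (-0.82 (adjusted p = 0.00521)). With itaconate present all 5 macrophage markers that passed the filter were called with lipid, *Cd68* higher (0.58 (adjusted p = 4.37e-07)) and the other 4 lower (median of the 5, -0.62, lowest -1.52 for *Adgre1*), so that the sum followed *Cd68* and not most of the markers. The cholangiocyte marker *Krt7* had at most 1 count in any library, and the cholangiocyte sum, carried by *Sox9*, fell from 126 to 98.3 CPM with lipid. Stellate and endothelial markers summed to at most 22.4 and 14.6 CPM as group means. In bulk RNA, fewer cells of a type and less RNA per cell cannot be told apart, and the part of these markers in the results below was not tested.

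Among untreated hepatocytes the members spanned 8.48 to 134 CPM, with a median of 29.6 CPM and a median coefficient of variation over the 4 libraries of 5.77%. Levels of different genes were compared per kilobase of the principal transcript, on which the members spanned 2.93 to 124 CPM per kilobase (median 22.4), a 42.4-fold range. *Mrps18b*, *Mrps18a* and *Mrps18c* all descend from the bacterial small subunit protein S18, and their products differ in place: that of *Mrps18a* is found in the large subunit. *Mrps18b* was the highest member, at 124 ± 5.75 CPM per kilobase (SD, n = 4), and the order continued with *Mrpl38* (92.1 ± 3.14), *Mrpl52* (86.6 ± 7.33), *Mrpl33* (81.9 ± 5.67) and *Mrps18a* (63.7 ± 3.11), while *Mrps18c* was number 24 of 78 at 29.2 ± 2.73. Of the exon bases of *Mrps18b*, 30.5% lie opposite a noncoding gene. *Mrpl38* and *Mrpl52*, and likewise *Mrpl52* and *Mrpl33*, did not differ beyond their SDs.

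The lowest members per kilobase were *Mrps25* (2.93 ± 0.241), *Mrps26* (3.50 ± 0.393), *Mrpl48* (4.69 ± 0.268), *Mrps35* (5.56 ± 0.392) and *Mrps14* (5.76 ± 0.117). Their principal transcripts are long (2999 bases for *Mrps14* to 6073 bases for *Mrps25*), and with the length of all exons of a gene in place of the principal transcript 3 of the lowest 5 and 2 of the highest 5 kept such a place. Of the exon bases of *Mrps25*, 69.8% lie opposite exons of *Nr2c2*, so that its level may hold reads of the other strand. *Mrps30*, whose product sits in the large subunit in spite of its symbol, was at 19.2 ± 0.944 CPM per kilobase. *Mrpl58*, a peptidyl-tRNA hydrolase that is also a part of the large subunit, was at 10.1 ± 0.321. *Mrps36*, now known as a subunit of the 2-oxoglutarate dehydrogenase complex, was at 20.5 ± 0.228, and reads of its pseudogene copies may be shared with it. Across the members, the lipid change described next had a Pearson r of 0.046 with log2 level and 0.14 with log2 length (n = 78 genes of the same libraries, a description across genes that are not independent).

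Overnight exposure to the lipid mixture was followed by higher transcript levels of many mitochondrial ribosomal proteins. Against untreated hepatocytes, 30 of the 78 members rose and 4 fell (edgeR's quasi-likelihood test with Benjamini-Hochberg adjustment over 11675 genes, threshold 0.05). Over all genes tested, 23.8% rose, 23.7% fell and 47.5% were called in either direction, so that the 43.6% of members called was near the background while 38.5% were called higher and 5.13% lower. The median log2 fold change of the members was 0.09, against 0.00 over all genes. Every change was modest, between -0.48 and 0.43 on the log2 scale, and 55 members had positive and 23 negative values. All 4 lipid libraries lay above all 4 untreated libraries for 22 members (16.6% of all genes tested) and below them for 5 (15.9%). Without lipid + itaconate replicate C in the model, 30 members rose and 4 fell, where 51.4% of all genes were called.

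The same exposure in the presence of itaconate was measured in 8 other libraries. Between lipid + itaconate and itaconate hepatocytes, 34 members rose and 4 fell, where 23.5% of all genes rose and 23.5% fell (47% in either direction). The median was 0.12 (0.00 over all genes), with 64 positive and 14 negative values. All 4 lipid + itaconate libraries lay above all 4 itaconate libraries for 27 members (16.6% of all genes) and below for 2 (14.8%). Without lipid + itaconate replicate C, 32 members rose and 3 fell, where 44.3% of all genes were called. The comparisons share no library, although they share the replicate letters: 26 members were called higher in both, 86.7% of the first list and 76.5% of the second, and the same 4 members were called lower in both. Over all genes tested, 75.1% of the first higher list and 76.2% of the second were shared, and 76.5 and 77.1% of the lower lists. The difference between the members' shares and those of all genes was not tested. The forest of log2 fold changes shows all 78 members in both comparisons.

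**Figure D1:**
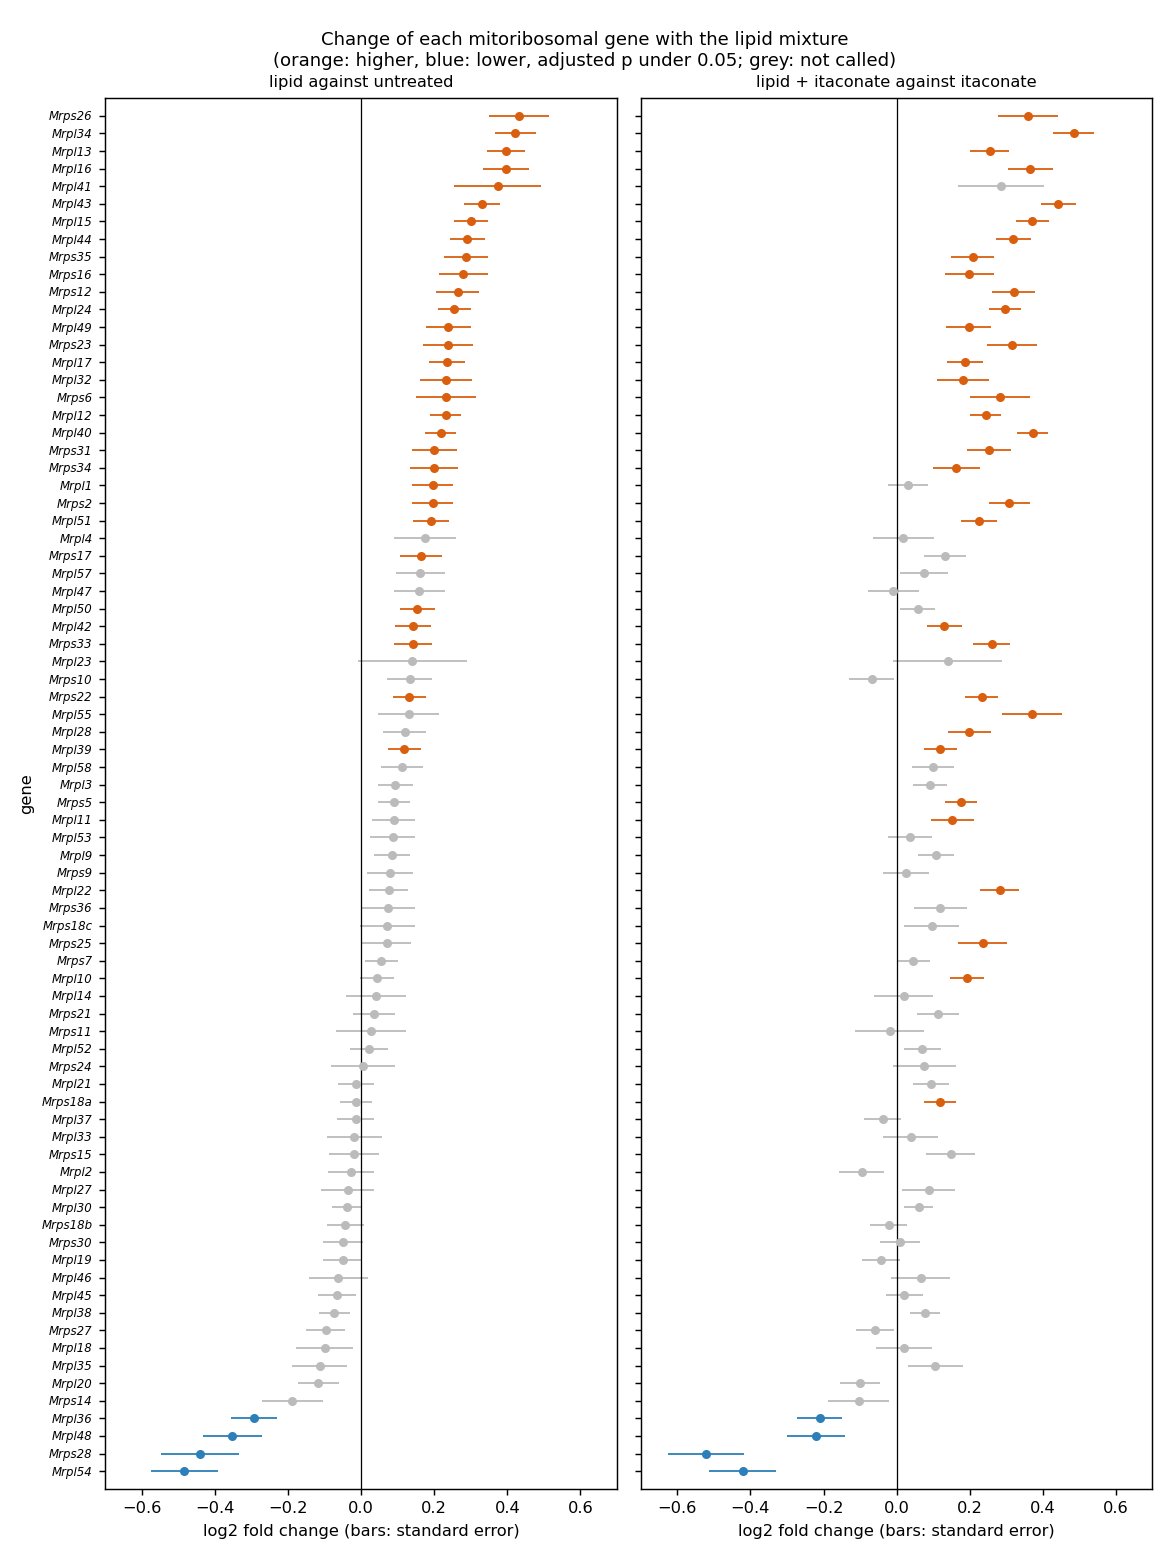
Log2 fold change (x axis; bars, standard error) of each of the 78 genes (y axis, ordered by the left panel) for lipid against untreated (left) and lipid + itaconate against itaconate (right), with genes of adjusted p under 0.05 in orange (higher) or blue (lower) and others in grey. The 30 higher and 4 lower members of the left panel stand beside 34 and 4 in the right panel, and *Mrpl36*, *Mrpl48*, *Mrps28* and *Mrpl54* form the lower end on the left.

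Summed over the members, transcript levels were 2766, 2741, 2707 and 2555 CPM in untreated replicates A to D and 2964, 2939, 2758 and 2798 CPM in the lipid replicates. In itaconate hepatocytes the sums were 2619.9, 2688, 2519 and 2588 CPM, and in lipid + itaconate hepatocytes 2879, 2954, 2716 and 2803 CPM. The TMM factors in these sums were 0.957 to 0.998 in untreated and 1.030 to 1.049 in lipid libraries. They were 0.949 to 0.979 in itaconate and 0.952 to 1.046 in lipid + itaconate libraries. Within each letter the lipid library was higher, by 7.16, 7.23, 1.89 and 9.52% in A to D without itaconate and by 9.90, 9.88, 7.83 and 8.33% with it. The groups overlapped in the first case, since lipid replicate C was below untreated replicate A, and did not overlap in the second. The increase was seen for both subunits: the *Mrpl* sum was 1763 ± 66.5 CPM (SD, n = 4) in untreated and 1886 ± 74.2 in lipid hepatocytes, and the *Mrps* sum 929 ± 29.6 and 979 ± 31.2.

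**Figure D2:**
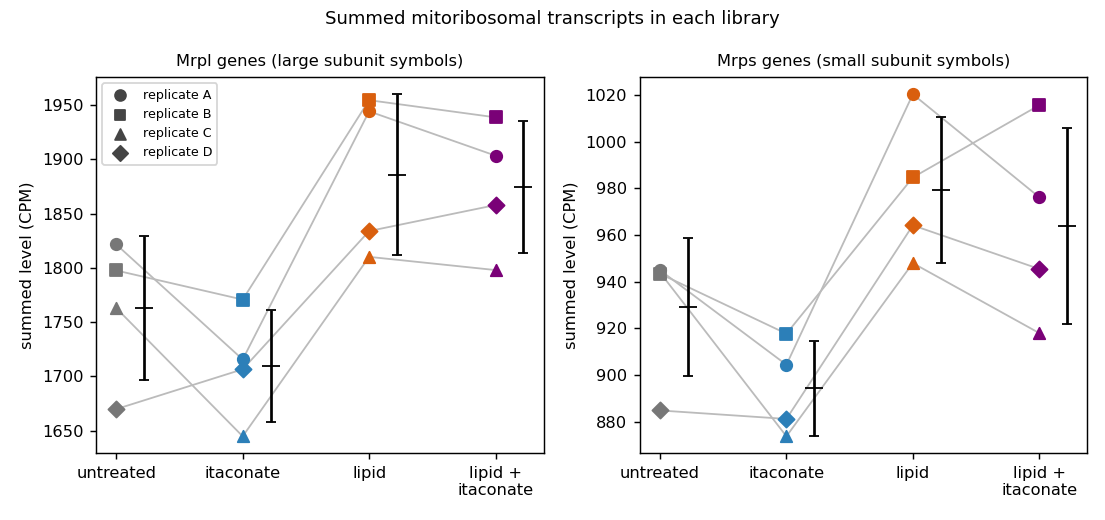
Summed level in CPM (y axis, not from 0) of the 49 large subunit genes (left) and 29 small subunit genes (right) in each library by treatment, with lines joining libraries of 1 replicate letter and black bars for the mean and SD (n = 4). The mean of the large subunit sum goes from 1763 CPM (untreated) to 1886 CPM (lipid) and from 1709 CPM (itaconate) to 1874 CPM (lipid + itaconate), and that of the small subunit sum from 929 to 979 and from 894 to 964 CPM.

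By subunit, 18 of 49 *Mrpl* genes rose and 3 fell with lipid alone (median log2 fold change 0.11), and 12 of 29 *Mrps* genes rose and 1 fell (median 0.08). With itaconate present the counts were 20 and 3 of 49 and 14 and 1 of 29. Of 45 members with bacterial counterparts, 14 rose and 2 fell with lipid alone, and of 32 members particular to mitochondria 16 rose and 2 fell (medians 0.08 and 0.13). With itaconate, the counts were 17 and 2 of 45 and 17 and 2 of 32. Called higher were 31.1% of the first class and 50% of the second with lipid alone, and 37.8 and 53.1% with itaconate present. Over all genes tested, 23.8% rose and 23.7% fell with lipid alone, and 23.5% rose and 23.5% fell with itaconate present. The difference between these classes was not tested. *Mrps36* was left out of both classes and was not called.

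*Mrps26* (mS26), a small subunit protein particular to mitochondria (ENSMUSG00000037740.8, chr2:130563742-130568695, plus strand), had the largest increase with lipid alone. Its level was 16.02, 15.7, 15.7 and 12.5 CPM in untreated replicates A to D and 24.3, 19.3, 19.7 and 17.99 CPM in the lipid replicates. With itaconate it was 16.5, 14.01, 12.5 and 14.3 CPM, and with both agents 19.8, 18.8, 16.6 and 18.3 CPM. Each lipid library lay above each library without lipid under the same itaconate condition, the highest being lipid replicate A. The means were 14.96 ± 1.68 and 20.3 ± 2.73 CPM (SD, n = 4) without itaconate. The log2 fold change was 0.43 ± 0.0821 (adjusted p = 0.000498), with SE after the sign ±, and with itaconate 0.36 ± 0.0818 (adjusted p = 0.00223). Its promoter window, shown above, holds ETS and NRF1 letters.

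*Mrpl34* (bL34m), counterpart of a small bacterial large subunit protein (ENSMUSG00000034880.7, chr8:71464959-71465747, plus strand), was at 20.3, 22.1, 21.4 and 19.3 CPM in untreated and 28.4, 29.005, 27.5 and 26.3 CPM in lipid replicates A to D. It was at 18.6, 21.3, 20.3 and 18.4 CPM with itaconate and 25.9, 27.5, 28.01 and 28.4 CPM with both. The libraries fell into separate ranges, and no library without lipid reached the lowest with lipid. On the log2 scale the change was 0.42 ± 0.0572 (adjusted p = 2.63e-05) without and 0.48 ± 0.0569 (adjusted p = 8.23e-06) with itaconate. *Mrpl13* (uL13m; ENSMUSG00000022370.13, chr15:55534094-55557748, minus strand), also of bacterial descent, was at 32.5, 32.6, 28.6 and 29.5 CPM in untreated and 42.9, 39.7, 37.7 and 41.8 CPM in lipid replicates. With itaconate it was at 33.6, 32.8, 27.8 and 33.5 CPM, and with both at 38.8, 41.4, 36.3 and 35.7 CPM. Again the ranges did not overlap within an itaconate condition, although itaconate replicate C was low. Its change on the log2 scale was 0.40 ± 0.0529 (adjusted p = 2.31e-05) and 0.25 ± 0.0524 (adjusted p = 0.00108).

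*Mrpl16* (uL16m; ENSMUSG00000024683.6, chr19:11770391-11774960, plus strand), whose bacterial counterpart lies near the site where peptide bonds are made, was at 36.7, 31.2, 30.9 and 30.4 CPM in untreated and 43.6, 45.3, 39.9 and 40.6 CPM in lipid replicates. Its values were 31.99, 31.3, 30.3 and 31.99 CPM with itaconate and 39.5, 38.1, 43.6 and 40.7 CPM with both. Untreated replicate A was the highest library without lipid and still lay below every lipid library. Its log2 fold change was 0.40 ± 0.0623 (adjusted p = 0.000102) and 0.37 ± 0.0619 (adjusted p = 0.000221). *Mrpl43* (mL43, particular to mitochondria; ENSMUSG00000025208.9, chr19:45004829-45006442, minus strand) was at 41.5, 38.3, 39.6 and 38.9 CPM in untreated and 48.99, 53.1, 48.2 and 48.7 CPM in lipid replicates. With itaconate it was at 38.1, 36.8, 34.5 and 38.2 CPM and with both at 53.5, 52.8, 47.7 and 46.8 CPM, again without overlap. In log2 terms it changed by 0.33 ± 0.0493 (adjusted p = 6.35e-05) and 0.44 ± 0.0490 (adjusted p = 4.76e-06). Of its exon bases, 33.4% lie opposite exons of *Twnk*, the mitochondrial DNA helicase, which itself rose, by 0.38 ± 0.0516 (adjusted p = 2.47e-05) and, with itaconate, 0.17 ± 0.0509 (adjusted p = 0.0145). The library kit keeps the strand, but the strand setting of the counting was not given in the sources used here, and reads of the pair could be mixed.

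*Mrpl41* (mL41; ENSMUSG00000036850.4, chr2:24974117-24975098, minus strand) had the largest adjusted p of the 6 increases described here. It was at 10.2, 8.42, 7.89 and 7.46 CPM in untreated and 12.2, 12.2, 9.36 and 10.2 CPM in lipid replicates, and the groups overlapped, since untreated replicate A was above lipid replicate C. With itaconate it was at 8.81, 9.05, 5.46 and 6.57 CPM, and with both at 8.80, 8.78, 7.96 and 10.5 CPM. The log2 fold change was 0.37 ± 0.118 (adjusted p = 0.0163), a call lost without untreated replicate B or D and without the replicate letter (largest adjusted p 0.0667), and with itaconate, where it was not called, 0.29 ± 0.119 (adjusted p = 0.0594). In all 4 letters the value was higher with lipid than in the untreated library.

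The other 24 members that rose with lipid alone had log2 fold changes of 0.12 to 0.30. They include, of bacterial descent, *Mrpl15* (0.30 (adjusted p = 7.12e-05)), *Mrps16* (0.28 (adjusted p = 0.00319)) and *Mrps12* (0.26 (adjusted p = 0.00172)), whose bacterial counterpart S12 lies at the decoding site. *Mrpl12* forms the stalk that recruits translation factors and is also known as a partner of the mitochondrial RNA polymerase. It rose from 77.1 ± 4.79 to 90.4 ± 4.50 CPM (SD, n = 4) without overlap of the libraries. Its log2 fold change was 0.23 (adjusted p = 0.000475), and with itaconate 0.24 (adjusted p = 0.000338). Among proteins particular to mitochondria, *Mrpl44* (0.29 (adjusted p = 0.000142)) and *Mrps35* (0.29 (adjusted p = 0.00110)) had the next largest changes. *Mrpl17*, *Mrpl24*, *Mrpl32*, *Mrpl39*, *Mrpl40*, *Mrpl42*, *Mrpl49*, *Mrpl51*, *Mrps2*, *Mrps6*, *Mrps22*, *Mrps23*, *Mrps31*, *Mrps33* and *Mrps34* completed the members called higher in both comparisons. *Mrpl1*, *Mrpl50* and *Mrps17*, like *Mrpl41*, were called without itaconate only. Several of these calls depended on the analysis: of 24 alternatives, *Mrpl39* kept its call in 9 without and 10 with itaconate, *Mrpl42* in 18 and 11, *Mrpl32* in 22 and 5, and *Mrps34* in 21 and 7. Of the exon bases of *Mrps34*, 63.4% lie opposite exons of *Mapk8ip3* and 37% overlap *Nme3* on the same strand, so that its reads may be mixed with theirs. The same holds for *Mrps6*, where 19.9% overlap *Gm49711* and 10.4% *Slc5a3* on the same strand. For *Mrpl24*, 26.3% lie opposite exons of *Rrnad1*.

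With itaconate present, 8 members were called higher that were not called without it: *Mrpl10*, *Mrpl11*, *Mrpl22*, *Mrpl28*, *Mrpl55*, *Mrps5*, *Mrps18a* and *Mrps25*. The largest change among them was that of *Mrpl55*, 0.37 (adjusted p = 0.00193), beside 0.13 (adjusted p = 0.211) without itaconate. *Mrps18a* was the 1 member with opposite signs, -0.01 without and 0.12 (adjusted p = 0.0368) with itaconate, a call that held in 10 of 24 alternative analyses (largest adjusted p 0.169). That of *Mrpl11* held in 8 and that of *Mrpl28* in 21, and the other 5 held in all 24. These lists do not show that the lipid change depended on itaconate. In the test of that difference (the interaction term), no member had an adjusted p under 0.05 by edgeR (none by DESeq2 or limma either), against 0.00857% of all genes tested, and 6 had an unadjusted p under 0.05 (8.6% of all genes). The smallest adjusted p of a member was 0.449, for *Mrpl22*, with a log2 difference of 0.21.

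The 4 members that fell were the same in both lipid comparisons. *Mrpl54* (mL54, particular to mitochondria; ENSMUSG00000034932.4, chr10:81264713-81266934, minus strand) was at 24.4, 21.4, 19.4 and 16.7 CPM in untreated replicates A to D and 14.5, 16.3, 14.5 and 12.9 CPM in the lipid replicates. It was at 18.7, 19.7, 16.7 and 17.2 CPM with itaconate and 15.2, 15.02, 10.4 and 13.6 CPM with both. Every lipid library was below every library without lipid under the same itaconate condition, although untreated replicate D came close to lipid replicate B. On the log2 scale the change was -0.48 ± 0.0915 (adjusted p = 0.000494) and, with itaconate, -0.42 ± 0.0914 (adjusted p = 0.00157). *Mrps28* (bS1m, related to the bacterial mRNA-binding protein S1; ENSMUSG00000040269.5, chr3:8802146-8923918, minus strand) was at 17.9, 15.1, 15.4 and 14.02 CPM in untreated and 12.8, 10.3, 11.1 and 11.5 CPM in lipid replicates. It was at 15.9, 16.003, 15.3 and 14.04 CPM with itaconate and 10.5, 13.9, 9.25 and 9.25 CPM with both, where replicate B stayed highest and just under the lowest itaconate library. Its change on the log2 scale was -0.44 ± 0.106 (adjusted p = 0.00298) and -0.52 ± 0.105 (adjusted p = 0.000927).

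*Mrpl48* (mL48; ENSMUSG00000030706.17, chr7:100545751-100608301, minus strand) was at 20.1, 21.1, 20.8 and 18.5 CPM in untreated and 17.3, 16.3, 14.5 and 15.2 CPM in lipid replicates, without overlap. With itaconate it was at 21.5, 22.6, 17.999 and 19.2 CPM and with both at 19.4, 20.1, 13.7 and 16.8 CPM, where replicates A and B lay above itaconate replicates C and D. Its log2 fold change was -0.35 ± 0.0806 (adjusted p = 0.00211) and -0.22 ± 0.0793 (adjusted p = 0.0311). The second was lost in 8 of 24 alternative analyses, among them those without any single itaconate library and those without lipid + itaconate replicate C or D (largest adjusted p of the 24, 0.129). *Mrpl36* (bL36m, a counterpart of the smallest bacterial large subunit protein; ENSMUSG00000021607.9, chr13:73328513-73332178, plus strand) was at 29.5, 28.98, 31.8 and 29.6 CPM in untreated and 24.1, 26.4, 22.7 and 24.5 CPM in lipid replicates. It was at 26.7, 33.6, 31.7 and 29.5 CPM with itaconate and 25.6, 27.1, 27.03 and 25.1 CPM with both, and these groups overlapped through itaconate replicate A. In log2 terms it changed by -0.29 ± 0.0625 (adjusted p = 0.00129) and -0.21 ± 0.0616 (adjusted p = 0.0110). A processed copy of *Mrpl48* exists, so that its reads may be divided.

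**Figure D3:**
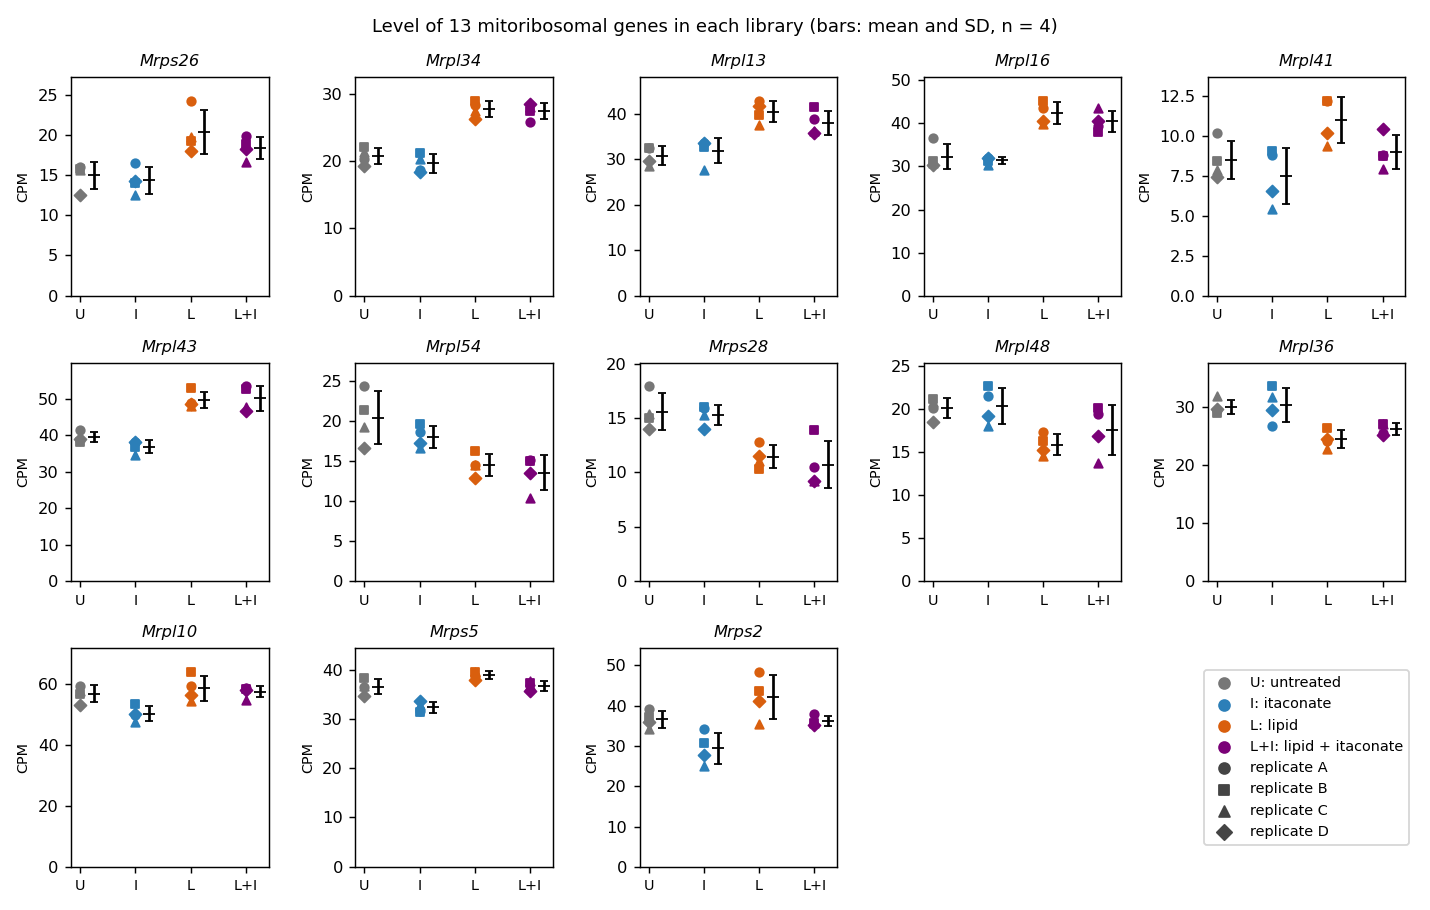
Level in CPM (y axis from 0) of the 6 members with the largest increase with lipid, the 4 that fell and the 3 called with itaconate, in each library of untreated (U), itaconate (I), lipid (L) and lipid + itaconate (L+I) hepatocytes, with a marker for each replicate letter and bars for the mean and SD (n = 4). Lipid libraries of *Mrpl34* lie between 25.9 and 29.005 CPM, above all libraries without lipid (18.4 to 22.1 CPM), and *Mrps2* is lowest in the itaconate libraries.

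The remaining 36 members were called in neither lipid comparison. Their log2 fold changes lay between -0.19 and 0.17 without itaconate and between -0.10 and 0.15 with it, 15 being positive and 7 negative in both. They were *Mrpl2*, *Mrpl3*, *Mrpl4*, *Mrpl9*, *Mrpl14*, *Mrpl18*, *Mrpl19*, *Mrpl20*, *Mrpl21*, *Mrpl23*, *Mrpl27*, *Mrpl30*, *Mrpl33*, *Mrpl35*, *Mrpl37*, *Mrpl38*, *Mrpl45*, *Mrpl46*, *Mrpl47*, *Mrpl52*, *Mrpl53*, *Mrpl57* and *Mrpl58* of the large subunit symbols. Of the small subunit symbols they were *Mrps7*, *Mrps9*, *Mrps10*, *Mrps11*, *Mrps14*, *Mrps15*, *Mrps18b*, *Mrps18c*, *Mrps21*, *Mrps24*, *Mrps27*, *Mrps30* and *Mrps36*. Of the 5 most abundant members per kilobase, *Mrps18b*, *Mrpl38*, *Mrpl52* and *Mrpl33* were among them. *Mrps18a* was not, since it was called higher with itaconate present.

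Itaconate alone was followed by few changes in the members. Against untreated hepatocytes 3 members fell and none rose, 3.85% of the 78, where 4.91% of all genes were called (1.96% higher and 2.95% lower). At an unadjusted p under 0.05 there were 16 members (21.3% of all genes), 15 of them lower, and 61 of 78 had negative values (median -0.05, against 0.00 over all genes). In the fit without the replicate letter, no member was called by edgeR (10 at an unadjusted p under 0.05), and 23 genes remained in place of 573. Between lipid + itaconate and lipid hepatocytes no member was called by edgeR, where 2.58% of all genes were (1.32% higher and 1.26% lower), and 5 had an unadjusted p under 0.05 (17.3% of all genes). DESeq2 called 1 member, where it called 4.36% of all genes. Without lipid + itaconate replicate C, 6 members were called lower for itaconate alone, where 8.96% of all genes were called. For lipid + itaconate against lipid 2 were called lower without it, where 7.61% of all genes were called. The median was -0.02, with 33 positive and 45 negative values, and 38 members were negative in both itaconate comparisons.

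*Mrps2* (uS2m, counterpart of bacterial S2; ENSMUSG00000035772.11, chr2:28468066-28471178, plus strand) had the largest decrease. It was at 39.3, 37.2, 34.1 and 35.997 CPM in untreated replicates A to D and 34.1, 30.6, 25.1 and 27.7 CPM in the itaconate replicates, and at 48.4, 43.6, 35.4 and 41.04 CPM with lipid and 38.002, 35.8, 35.8 and 35.2 CPM with both. Every itaconate library was below every untreated one, A only just below untreated replicate C, while the lipid and lipid + itaconate libraries overlapped. The means were 36.6 ± 2.14 CPM untreated and 29.4 ± 3.88 CPM with itaconate (SD, n = 4). The log2 fold change was -0.32 ± 0.0570 (adjusted p = 0.00460), and in the presence of lipid, where it was not called, -0.21 ± 0.0559 (adjusted p = 0.0564). Over 24 alternative analyses the adjusted p of *Mrps2* for itaconate against untreated ranged from 0.000187 to 0.159, and 23 were under the threshold. The exception was the fit without the replicate letter.

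*Mrps5* (uS5m, whose bacterial counterpart is known for the accuracy of decoding; ENSMUSG00000027374.12, chr2:127587222-127606829, plus strand) was at 36.4, 38.3, 36.7 and 34.6 CPM in untreated and 31.5, 31.5, 32.7 and 33.7 CPM in itaconate replicates, and every itaconate library was below every untreated one. It was at 38.6, 39.4, 39.6 and 37.8 CPM with lipid and 35.9, 37.3, 37.6 and 35.6 CPM with both, which did not overlap either. On the log2 scale the change was -0.17 ± 0.0441 (adjusted p = 0.0340) and, with lipid, -0.09 ± 0.0437 (adjusted p = 0.326), which was not called. *Mrpl10* (uL10m, at the base of the stalk that carries the *Mrpl12* product; ENSMUSG00000001445.10, chr11:97041560-97049213, plus strand) was at 59.5, 56.7, 57.9 and 52.98 CPM in untreated and 49.9, 53.6, 47.7 and 50.1 CPM in itaconate replicates, with overlap through untreated replicate D. It was at 59.2, 64.1, 54.4 and 56.6 CPM with lipid and 58.7, 58.3, 54.8 and 57.9998 CPM with both. Its change on the log2 scale was -0.17 ± 0.0467 (adjusted p = 0.0431) and, with lipid, -0.03 ± 0.0464 (adjusted p = 0.814). This call held in 8 of 24 alternative analyses and was lost without any single untreated or itaconate library (largest adjusted p 0.198). That of *Mrps5* held in 16 and was lost without replicate A, B or C of either group (largest adjusted p 0.189). The refits without a lipid or lipid + itaconate library, which are not in this comparison, were all among the 16.

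**Figure D4:**
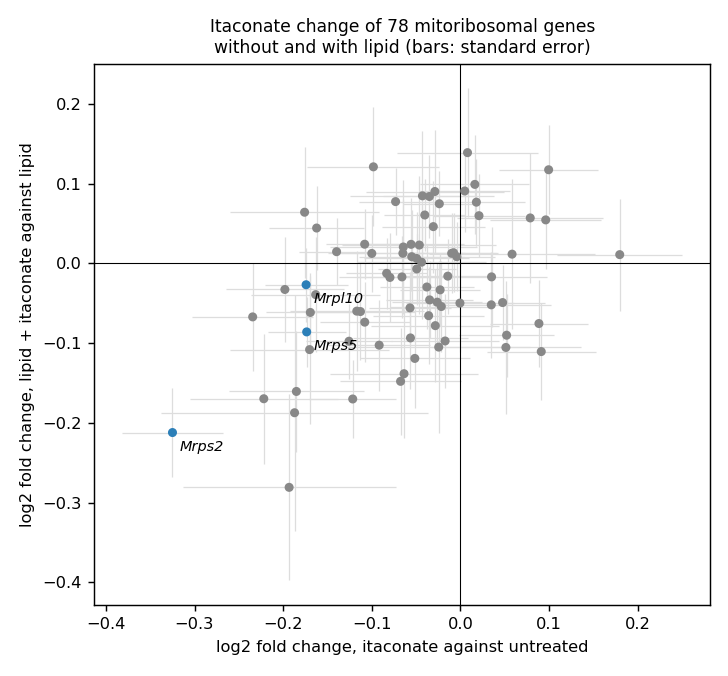
Log2 fold change of the 78 genes for itaconate against untreated (x axis) and for lipid + itaconate against lipid (y axis), with bars for the standard error and the 3 members called in the first comparison in blue and named. Values on both axes are small, with medians of -0.05 and -0.02, and *Mrps2* lies furthest to the left at -0.32.

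Mitoribosomal proteins with other symbols and the genes that build and use the ribosome were looked at beside the members. Over all genes tested, 47.5% were called with lipid alone (23.8% higher and 23.7% lower). The share was 47% with lipid when itaconate was present (23.5% higher and 23.5% lower) and 4.91% with itaconate alone. Of 5 further ribosomal proteins, *Dap3* (the GTP-binding protein of the small subunit; 0.26 (adjusted p = 0.000296)), *Ptcd3* (0.26 (adjusted p = 0.00189)) and *Aurkaip1* (0.19 (adjusted p = 0.00670)) rose with lipid alone. *Chchd1* (0.06 (adjusted p = 0.530)) and *Gadd45gip1* (-0.10 (adjusted p = 0.207)) were not called. With itaconate present, *Ptcd3* (0.30 (adjusted p = 0.000707)) and *Dap3* (0.16 (adjusted p = 0.00793)) rose. None of the 5 was called with itaconate alone, where 0 had an unadjusted p under 0.05.

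Of 26 genes for assembly of the ribosome and modification of its rRNA, 11 rose and 2 fell with lipid alone, and 14 rose and 2 fell with itaconate present (medians 0.21 and 0.20). In either direction 50% and 61.5% of the list were called, against 47.5% and 47% of all genes tested. Called higher were 42.3% and 53.8%, against 23.8% and 23.5%. The largest increases were those of *Mrm2*, a methyltransferase of the large subunit rRNA (0.68 (adjusted p = 0.000211) and, with itaconate, 0.76 (adjusted p = 9.38e-05)), and of the pseudouridine synthase family member *Rpusd3* (0.59 (adjusted p = 0.00371) and 0.52 (adjusted p = 0.00885)). *Nsun4*, an rRNA methyltransferase needed to join the subunits, fell by more than any member, -0.70 (adjusted p = 0.000229) and -0.58 (adjusted p = 0.00106), and *Rcc1l* changed by -0.32 (adjusted p = 0.000326) and -0.27 (adjusted p = 0.00140). *Ddx28*, *Dhx30*, *Fastkd2*, *Malsu1*, *Mterf4*, *Mtg2*, *Rbfa*, *Trub2* and *Ybey* were the others that rose with lipid alone.

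Of 15 genes of mitochondrial translation, 7 rose and 1 fell with lipid alone. In either direction 53.3% were called, against 47.5% of all genes tested, and 46.7% were called higher, against 23.8%. The largest increases were those of the release factor family member *Mtrf1* (0.46 (adjusted p = 0.0128)) and the initiation factor *Mtif3* (0.38 (adjusted p = 0.000876)). *Mtif2*, *Mtfmt*, *Gfm1*, *Taco1* and *Oxa1l* also rose, and the elongation factor *Tufm* fell (-0.17 (adjusted p = 0.00531)). With itaconate present 7 rose and none fell (46.7%, against 47% of all genes in either direction and 23.5% higher), *Mtrf1* by 0.67 (adjusted p = 0.00115). The elongation factor *Gfm1* was the 1 gene of the list called with itaconate alone, at -0.18 (adjusted p = 0.0413), where 4.91% of all genes were called. Of 8 genes for transcription and copying of mitochondrial DNA, 3 rose and 1 fell with lipid alone: *Tefm* (0.48 (adjusted p = 0.00573)), *Twnk*, *Ssbp1* (0.23 (adjusted p = 0.00532)) and *Polg* (-0.15 (adjusted p = 0.0140)). That is 50% of the list, near the 47.5% of all genes tested.

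Regulators known for this set of genes were called in both directions. With lipid alone 44.4% of the list were called, near the 47.5% of all genes tested. The shares were 55.6% and 47% with itaconate present, and 22.2% and 4.91% with itaconate alone. Of 9 regulators, *Esrra* rose with lipid alone (0.27 (adjusted p = 0.00193)), and *Myc* (-0.34 (adjusted p = 6.53e-05)), *Yy1* (-0.29 (adjusted p = 0.000173)) and *Pprc1* (-0.13 (adjusted p = 0.0397)) fell. *Ppargc1a*, the coactivator PGC-1 alpha, was at -0.28 (adjusted p = 0.138), *Ppargc1b* at 0.38 (adjusted p = 0.128), *Nrf1* at -0.04 (adjusted p = 0.700), *Gabpa* at -0.05 (adjusted p = 0.429) and *Gabpb1* at 0.06 (adjusted p = 0.531), none of them called. With itaconate present, *Ppargc1a* also fell with lipid (-0.63 (adjusted p = 0.00177)), as did *Myc* (-0.50 (adjusted p = 2.37e-06)), *Yy1* (-0.34 (adjusted p = 4.21e-05)) and *Pprc1* (-0.28 (adjusted p = 0.000221)), and *Esrra* rose (0.16 (adjusted p = 0.0338)). With itaconate alone, *Ppargc1a* (0.69 (adjusted p = 0.0121)) and *Yy1* (0.21 (adjusted p = 0.0207)) rose.

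The cytosolic ribosome and the respiratory chain gave other counts. Of 79 cytosolic ribosomal proteins tested, none rose (0 also at an unadjusted p under 0.05) and 43 fell with lipid alone (median log2 fold change -0.12), and none rose and 28 fell with itaconate present (median -0.09). Of 79 nuclear genes of the respiratory chain and ATP synthase, 8 rose and 11 fell with lipid alone (median -0.04), and 7 rose and 9 fell with itaconate present. Called with lipid alone were 54.4% of the cytosolic list and 24.1% of the respiratory chain list (10.1% higher and 13.9% lower). Over all genes tested the share was 47.5% (23.8% higher and 23.7% lower). With itaconate present the lists were at 35.4% and 20.3%, against 47% of all genes (23.5% higher and 23.5% lower). Of the 13 mRNAs of the mitochondrial genome, which the ribosome translates, 1 rose with lipid alone, *mt-Nd5* (0.36 (adjusted p = 0.0304)), and the list had a median of 0.10. With itaconate alone *mt-Atp8* (0.32 (adjusted p = 0.0433)) and *mt-Cytb* (0.28 (adjusted p = 0.0341)) rose, where 1.96% of all genes tested did, and the median was 0.17. The differences between lists were not tested, and the share of all counts from the mitochondrial genome was between 3.78 and 4.77% as group means.

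**Figure D5:**
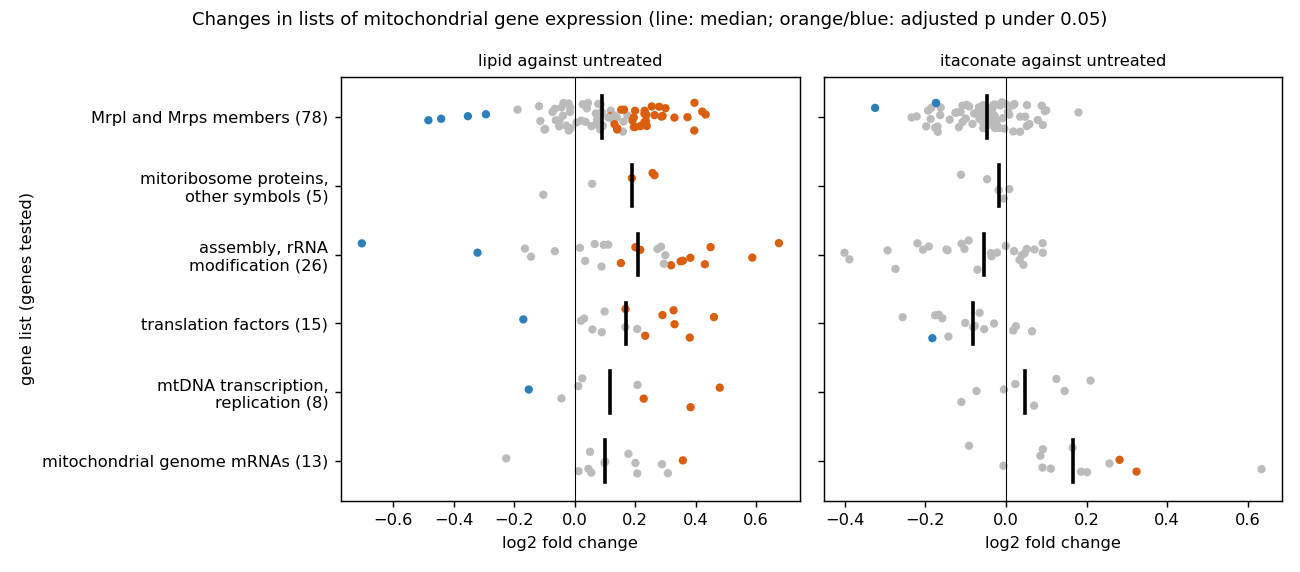
Log2 fold change (x axis) of each gene tested in 6 lists of mitochondrial gene expression (y axis) for lipid against untreated (left) and itaconate against untreated (right), with black lines for the medians and genes of adjusted p under 0.05 in orange (higher) or blue (lower). On the left the medians of the members (0.09), of the assembly genes (0.21) and of the translation factors (0.17) lie above 0, and on the right those of the members (-0.05) and translation factors (-0.08) lie below.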

How the data were processed

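RNA was isolated from 16 samples of primary mouse hepatocytes and sequenced from a stranded mRNA kit. The submitters' processing notes name bcl2fastq 2.20, cutadapt 1.18, STAR 2.7.0f, Picard 2.18.26, RSEM 1.3.1 and mm10. The authors deposited the expected counts that RSEM gives for each gene, not normalized. Such a count divides reads that fit several genes, which affects members with pseudogenes. Rounded counts went into edgeR 4.0.16 under R 4.3.3, and limma 3.58.1 and DESeq2 1.42.0 served as alternatives. The 11675 genes averaging 1 CPM or more were kept, and TMM normalization and the quasi-likelihood test were applied in 1 model of treatment and replicate letter over 16 libraries, with Benjamini-Hochberg adjustment over all genes tested. Log2 values of single libraries, and those given to limma, used a prior count of 0.5. The log2 fold changes are those of edgeR at its default prior count. SE was worked out as the absolute log2 fold change divided by the square root of the F statistic of its test. The letter was kept because libraries of 1 letter tended to deviate together from their group means. Over all genes tested, 24 same-letter correlations ran from 0.143 to 0.468, and 72 between letters from -0.435 to 0.178. Over the members the ranges were -0.081 to 0.577 and -0.508 to 0.449. Medians were 0.263 and -0.114 over all genes, and 0.274 and -0.106 over the members. Deviations from a group mean sum to 0, so that the negative medians follow from the positive ones and are no separate evidence. Positions and lengths are those of GENCODE M21 (GRCm38), lengths being of the principal transcript. Members and gene lists were chosen with earlier results of these data known, and 1 gene (*Mrpl55*) was moved to the class without bacterial counterparts afterwards. Members named with values are those called with itaconate, the 6 largest increases and up to 6 largest decreases with lipid at a mean of at least 5 CPM, the 5 highest and 5 lowest per kilobase and those whose symbol departs from their place, others being named as lists or chosen after their values were seen. Alternatives were 24 refits: without the letter, with other normalizations, filters, tools or libraries, and with each of the 16 libraries left out. For a given comparison, a refit without a library of a group not compared is a weaker check than one without a library compared.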

Additional observations from a re-analysis of the deposited data

Results flagged for a closer look

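In each group of 4 libraries, the library at either end was compared with its nearest neighbour, as a share of the whole range (Dixon's ratio, at its 95% critical value). Of 56 groups looked at, 4 exceeded it, and chance alone marks about 1 in 20. *Mrps26* was at 12.45 CPM in untreated replicate D, where the other untreated libraries were between 15.7 and 16.02 CPM. *Mrpl13* was at 27.8 CPM in itaconate replicate C, against 32.8 to 33.6 CPM. *Mrpl16* was at 36.7 CPM in untreated replicate A, against 30.4 to 31.2 CPM. *Mrpl43* was at 53.1 CPM in lipid replicate B, against 48.2 to 48.99 CPM. All 4 genes were called higher with lipid in each of the 24 alternative analyses, those without these libraries included.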

How the results depend on the processing

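Over 24 alternative analyses no direction of a called value reversed among the genes checked, the interaction aside. These were the members named by the rules above, the further mitoribosomal proteins, and the assembly, translation and regulator genes. Reversal was not looked for in this way for the other members. Of the 30 members called higher with lipid alone, 15 were called in every alternative, as were all 4 called lower; with itaconate present the counts were 23 of 34 and 2 of 4. Members called with lipid alone ranged from 26 to 48 in place of 34, and with itaconate present from 27 to 45 in place of 38, both lowest without the replicate block (letter) and highest with total counts in place of TMM. Of all genes, 35.5 and 34.2% were called without the block, against 48.4 and 46% with total counts. The last setting was chosen after seeing the data. It moved the median of all genes by 0.0800 and 0.0543 (log2) and the share of higher genes among all called from 50.1 to 68.5% and from 50 to 62.9%, for itaconate against untreated from 40 to 28.6%, and for lipid + itaconate against lipid from 51.2 to 17.9%, with 44 members higher and 4 lower, and 43 and 2, in the lipid comparisons. For itaconate against untreated, 3 members were called in the fit with the replicate block and 0 without it, 1 with no filter, 6 when just the 8 libraries compared were fitted and 1 to 6 when 1 library was left out. Over all genes, 4.91% were called with the block, 0.197% without it, 4.34% with no filter and 16% with just the 8 libraries. With 1 library left out, between 1.28 and 8.96% of all genes were called. Here 6 members came without lipid + itaconate replicate C, which added *Mrpl21*, *Mrpl40* and *Mrps15*, and 1 without untreated replicate A, B or C or itaconate replicate B or C. Without itaconate replicate A, *Mrpl47* was called higher (0.26). For lipid + itaconate against lipid, where 0 were called, DESeq2 called 1 (*Mrps2*), total counts 2 (*Mrps2* and *Mrpl17*), and leaving out 1 library 0 to 2 (*Mrps2* without lipid replicate C, *Mrps2* and *Mrpl17* without lipid + itaconate replicate C). Of all genes, DESeq2 called 4.36%, total counts 2.59% and the fits with 1 library left out 0.505 to 7.61%, against 2.58% in the main fit. The interaction gave 0 in each of the 23 alternatives run for it, since a fit of the libraries of 1 comparison holds no interaction. The cause of these moves was not tested. Without the block, the lipid calls lost were *Mrpl17*, *Mrpl39*, *Mrpl41*, *Mrps2*, *Mrps6*, *Mrps16*, *Mrps22* and *Mrps33* (adjusted p 0.0549 to 0.137) and, with itaconate present, *Mrpl11*, *Mrpl17*, *Mrpl28*, *Mrpl32*, *Mrpl39*, *Mrpl42*, *Mrpl48*, *Mrps6*, *Mrps16*, *Mrps18a* and *Mrps34* (0.0549 to 0.195), and none was gained. The lowest count of a member in any library was 145, so that counting error is part of the spread for members of low count.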
